A study of Mus musculus with 6 samples.

Results

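Cardiac fibroblast identity genes are the receptors, transcription factors and surface or secreted proteins by which resident fibroblasts of the heart are usually recognised. A set of 10 such genes was taken from the RNA-seq table by symbol: Pdgfra, Ddr2, Thy1, Fap, Tcf21, Meox1, Dpt, Gsn, S100a4 and Pi16. Every one had a row, so 10 of the 20066 listed genes are described. Collagens and other structural matrix genes were left out, although Dpt itself encodes a secreted matrix protein. The RNA came from cultured cardiomyocytes (CMs) of P0-1 C57BL/6 mice of no other stated genotype, all of them kept in culture for 96 h with either DMSO, the solvent, or cell-permeable αKG (α-ketoglutarate, a Krebs cycle metabolite) at 100 µM as given by the labels, and each group held 3 libraries. The study's methods list a different concentration for the octyl ester of αKG, so the dose is uncertain. According to those methods, cells dissociated from neonatal hearts were plated on fibronectin in serum-containing medium, with no step named that removes fibroblasts.

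Fibroblasts are the main interstitial cells of the heart. Most descend from epicardial cells that lose epithelial contacts and migrate into the myocardium, a step that needs the factor TCF21 and signals through PDGFRα, and after injury or on stiff culture plastic they can turn into contractile, matrix-secreting myofibroblasts. CM preparations from neonatal hearts commonly keep some of them. In such bulk RNA, fewer cells of a type and less RNA per cell cannot be told apart.

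The libraries held an estimated 3726069 to 4427587 reads in genes. αKG replicate 3 stood apart from its group: over all genes, its log2 values correlated at 0.977 to 0.98 with the DMSO libraries but at 0.962 and 0.963 with αKG replicates 1 and 2, which correlated at 0.978 with each other. Calls that change without it are therefore given both ways. All 10 markers of the labelled cell type were listed, led by Ttn, the giant sarcomeric spring protein, at 51569 to 84136 normalized counts in every library. Normalized counts are reads divided by a size factor per library, so they are comparable between libraries, and the value of 1 read lay between 0.9259 and 1.1188.

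The start regions of 4 members are shown, because 3 of them (Pdgfra, Ddr2 and Dpt) were higher together in αKG replicates 1 and 2 and the fourth, Tcf21, was not. Each run spans 250 bases before to 50 after a RefSeq transcript start (GRCm38.p6), 5′ to 3′ on the gene's own strand, and capitals mark matches to the motifs searched.
Pdgfra, chr5:75152001-75152300, plus strand: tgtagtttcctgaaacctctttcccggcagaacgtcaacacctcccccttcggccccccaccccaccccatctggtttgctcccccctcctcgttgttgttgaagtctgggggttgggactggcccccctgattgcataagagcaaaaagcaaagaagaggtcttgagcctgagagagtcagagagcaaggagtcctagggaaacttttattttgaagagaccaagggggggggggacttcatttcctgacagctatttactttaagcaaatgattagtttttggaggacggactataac
Ddr2, chr1:170088895-170089194, minus strand: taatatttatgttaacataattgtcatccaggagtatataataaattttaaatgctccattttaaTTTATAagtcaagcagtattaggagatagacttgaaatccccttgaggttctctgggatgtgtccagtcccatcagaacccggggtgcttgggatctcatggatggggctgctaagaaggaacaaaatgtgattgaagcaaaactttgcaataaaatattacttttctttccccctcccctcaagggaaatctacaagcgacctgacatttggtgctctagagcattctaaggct
Dpt, chr1:164796413-164796712, plus strand: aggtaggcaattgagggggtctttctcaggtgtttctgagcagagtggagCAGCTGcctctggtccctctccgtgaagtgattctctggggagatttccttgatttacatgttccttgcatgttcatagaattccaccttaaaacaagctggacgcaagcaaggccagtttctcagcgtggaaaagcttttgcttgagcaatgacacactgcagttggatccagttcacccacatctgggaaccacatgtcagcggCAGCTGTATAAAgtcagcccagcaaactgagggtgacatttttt
Tcf21, chr10:22820094-22820393, minus strand: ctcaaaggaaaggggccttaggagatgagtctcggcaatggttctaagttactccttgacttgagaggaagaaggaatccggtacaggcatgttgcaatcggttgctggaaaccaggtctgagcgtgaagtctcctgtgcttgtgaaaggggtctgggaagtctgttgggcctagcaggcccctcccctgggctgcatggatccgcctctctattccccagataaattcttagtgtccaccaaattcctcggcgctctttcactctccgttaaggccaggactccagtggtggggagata
In Dpt, the capitals are the E-box CAGCTG at 200 bases before and again 7 bases after the start, the second directly followed by a TATA box (TATAAA) at 13 bases after it. In Ddr2 they are the same TATA box read on the other strand, 185 bases before the start. The Pdgfra and Tcf21 windows held no match. The RefSeq starts of Pdgfra, Dpt and Tcf21 lie 41, 19 and 31 bases from the listed 5′ end of the gene, whereas that of Ddr2 lies 21818 bases inside its listed gene.

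RefSeq start regions were found for 7 of the 10 members, 9 regions in all because Gsn had several. A member is counted below if any of its regions held a match, whereas the shares of all regions count single regions. The 2 are therefore not of the same unit where Gsn is counted. Both strands were searched, and of the 7 members 3 held TATAAA, as did 13.6% of all 32851 start regions. The E-box CAGCTG, a site for basic helix-loop-helix factors such as TCF21, stood in 3 members and in 16.3% of all regions. CCAAT stood in 2 members (37.4% of all regions) and the GC box GGGCGG in 1, Gsn (35.7%). No member window held the TEAD motif CATTCC (14.7% of all regions), the AP-1 motif TGANTCA (7.81%) or the homeodomain motif TAATTA (5.29%). The Pdgfra, Ddr2, Dpt and Tcf21 windows contained 5, 2, 4 and 8 CpG dinucleotides, against a median of 7 over all regions. The windows of Pdgfra, Dpt and Ddr2, which were higher together in αKG replicates 1 and 2, thus shared none of these motifs among all 3. This holds for the searched windows only. That of Ddr2 lies inside its listed gene, and Thy1, also higher in those libraries, had no window.

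The receptors Pdgfra and Ddr2, the surface gene Thy1 and the secreted Dpt were higher in αKG replicates 1 and 2 than in all of the DMSO libraries, whereas the transcription factors Tcf21 and Meox1 and the cytoskeletal Gsn were not, and αKG replicate 3 lay below the DMSO range for 5 members and above it for 1. With all 6 libraries, 0 of the 10 members passed the test (limma on log2(value + 1), Benjamini-Hochberg adjusted p under 0.05 over all genes), while 3.78% of all genes did in either direction and 2.83% did as higher in αKG. At an unadjusted p under 0.05, 2 members passed, Ddr2 and Dpt, against 28.1% of all genes, and limma-voom on estimated reads also called 0. When αKG replicate 3 was left out, 4 members were called higher (Pdgfra, Ddr2, Thy1 and Dpt), against 19.3% of all genes. The median log2 fold change of the members was 0.15 with all libraries and 0.35 without αKG replicate 3, beside 0.04 and 0.06 over all genes. These medians include the low genes S100a4, Fap and Pi16. Among the 7 members with a mean of at least 10 the median was 0.30 with all libraries.

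**Figure D1:**
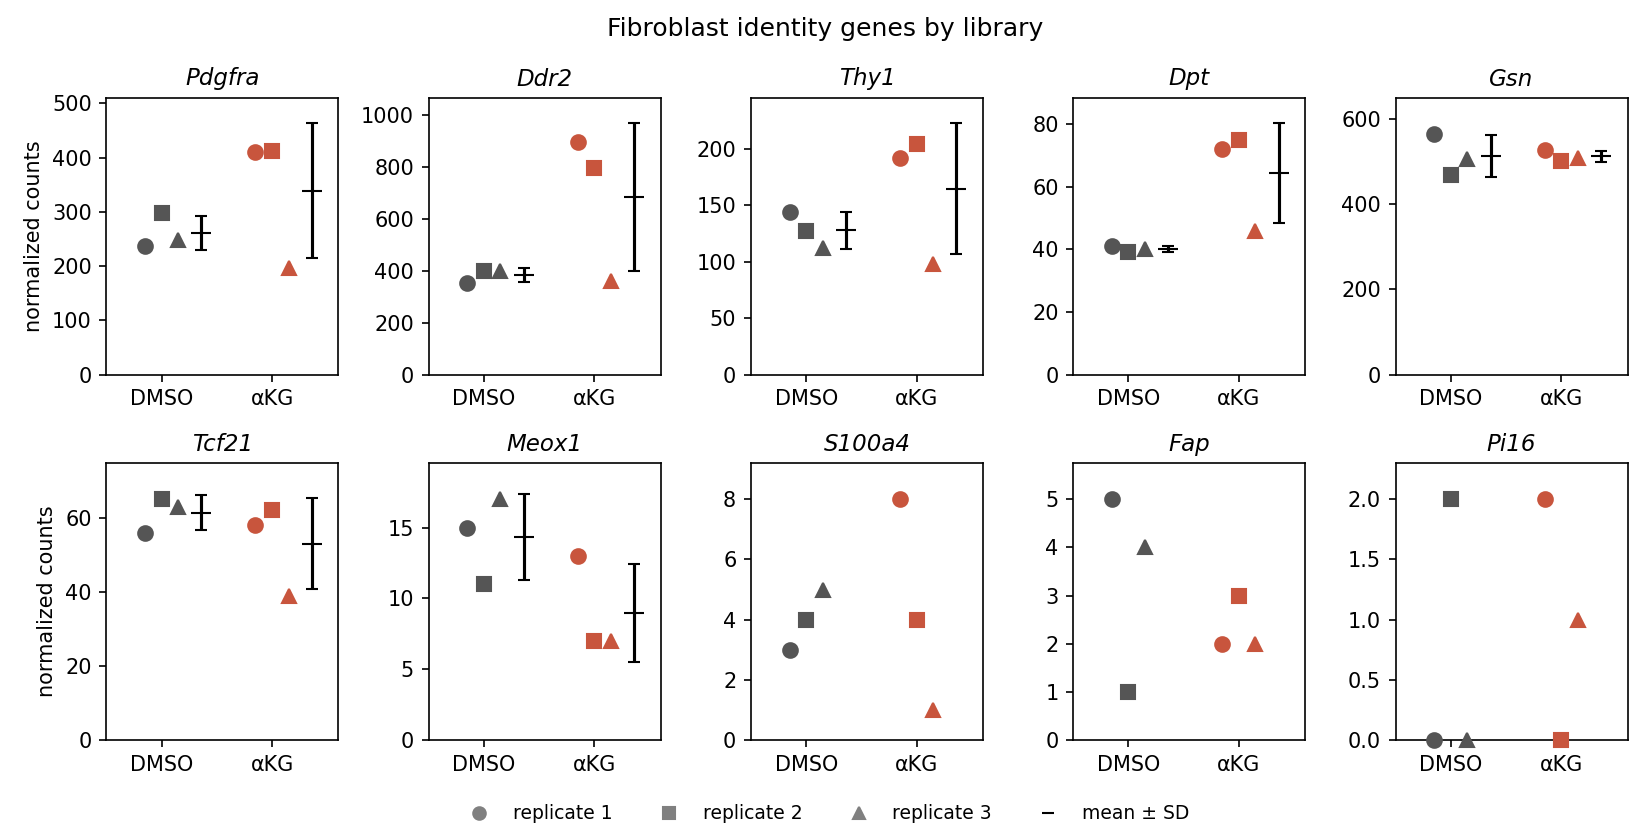
Normalized counts (y axis, linear from 0, scaled per gene) of the 10 fibroblast identity genes in each DMSO and αKG library; each point is 1 library, its shape the replicate number, and bars give the mean ± SD (n = 3) for the 7 genes with a mean of at least 10. For Pdgfra, Ddr2, Thy1 and Dpt the circle and square of αKG lie above all DMSO points. The triangle, replicate 3, lies below all DMSO points for Pdgfra and Thy1, inside their range for Ddr2 and just above it for Dpt. Gsn is level, and S100a4, Fap and Pi16 stay at 8 or below.

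Pdgfra (ENSMUSG00000029231, chr5:75152292-75198215, plus strand, GRCm38) encodes PDGF receptor α, the receptor tyrosine kinase most used to mark cardiac fibroblasts. The DMSO libraries gave 238, 297 and 248 normalized counts, against 410, 412 and 196 in αKG replicates 1, 2 and 3. Replicates 1 and 2 of αKG were above every DMSO library and replicate 3 was below every one. The means were 261 ± 31.6 (SD, n = 3) in DMSO and 339 ± 124 (SD, n = 3) in αKG, a log2 fold change of 0.31 ± 0.25 (SE, 95% interval -0.26 to 0.87, adjusted p = 0.445, limma) that did not exceed the spread between libraries. Without αKG replicate 3 it was 0.66 ± 0.10 (limma adjusted p = 0.00453), and over all alternatives the adjusted p ranged from 0.00453 to 0.85.

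Ddr2 (ENSMUSG00000026674, chr1:169972307-170110762, minus strand) encodes a receptor tyrosine kinase that binds fibrillar collagen. Its normalized counts were 351, 398 and 398 with DMSO and 894, 797 and 361 with αKG. The first pair of αKG libraries stood at 2.34 and 2.08 times the DMSO mean, and replicate 3 at 0.944 times, inside the DMSO range. The mean went from 382 ± 27.1 to 684 ± 284 (SD, n = 3 each), with a log2 fold change of 0.74 ± 0.28 (95% interval 0.12 to 1.35, limma adjusted p = 0.127). Leaving out αKG replicate 3 gave 1.14 ± 0.08, the largest called among the members (limma adjusted p = 0.00053). Across alternatives the adjusted p reached 0.472. A gene of the opposite strand, 3110045C21Rik, overlaps Ddr2 but was listed at 4 to 12 normalized counts.

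The PDGF ligands were also measured. Of the 4 PDGF genes, 0 passed the test (limma), and their median log2 fold change was -0.39. At an unadjusted p under 0.05, 3 were lower, as were 2495 of all 20066 genes. Pdgfb was listed at 73, 70 and 66 normalized counts with DMSO and at 28, 19 and 60 in αKG, lower in every αKG library (log2 fold change -1.10 ± 0.35, adjusted p = 0.0909). Pdgfd, at 54, 44 and 41 against 30, 36 and 27, did not overlap between the groups either (-0.56 ± 0.22, adjusted p = 0.134).

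Pdgfa, the ligand that acts through PDGFRα alone, was measured at 423, 361 and 404 with DMSO and at 333, 324 and 367 normalized counts with αKG (log2 fold change -0.21 ± 0.09, adjusted p = 0.173). Pdgfc, also a PDGFRα ligand, had 68, 72 and 68 against 75, 72 and 87 (0.16 ± 0.15, adjusted p = 0.505). Both overlapped between the groups. Without αKG replicate 3, Pdgfa (-0.27, limma adjusted p = 0.0381) and Pdgfb (-1.55, limma adjusted p = 0.00232) were called lower, as were 17.9% of all genes. The related receptors Pdgfrb and Ddr1 are named after seeing their values. Pdgfrb had 228, 251 and 220 against 347, 279 and 225 (adjusted p = 0.27), and without αKG replicate 3 it was called higher, as Pdgfra was (0.42, adjusted p = 0.0267). Ddr1, an epithelial collagen receptor, had 1094, 1080 and 1019 against 797, 779 and 1028 normalized counts (adjusted p = 0.101), and was called lower without that library (-0.43, adjusted p = 0.00146). Ddr2 and Ddr1 lay on opposite sides of the DMSO libraries in αKG replicates 1 and 2, and both lay inside the DMSO range in replicate 3.

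Thy1 (ENSMUSG00000032011, chr9:44043384-44048579, plus strand) encodes CD90, a glycolipid-anchored surface protein of fibroblasts and other mesenchymal cells. It was measured at 144, 127 and 112 normalized counts with DMSO and 192, 204 and 98 with αKG. As for Pdgfra, replicates 1 and 2 of αKG were above every DMSO library and replicate 3 below every one. The means were 128 ± 16.0 and 165 ± 58.0 (SD, n = 3 each), and the log2 fold change was 0.30 ± 0.25 (95% interval -0.26 to 0.86, limma adjusted p = 0.453). Without αKG replicate 3 it was 0.64 ± 0.12 (adjusted p = 0.00851), and alternatives reached an adjusted p of 0.855.

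Fap (ENSMUSG00000000392, chr2:62500943-62574075, minus strand) encodes fibroblast activation protein, a surface serine protease of activated fibroblasts. Its normalized counts were only 5, 1 and 4 with DMSO and 2, 3 and 2 with αKG. These stand for 10 and 7 estimated reads per group, or 0.773 (exact Poisson 95% interval 0.371 to 1.42) and 0.585 (0.235 to 1.2) per 1000000 reads, intervals that cover counting error only. A difference was not detectable at this depth. Its relative Dpp4, named after seeing its values, encodes a surface protease of adventitial fibroblasts and mesothelium and was listed at 8, 17 and 5 normalized counts with DMSO and 63, 54 and 6 with αKG (limma adjusted p = 0.219, or 0.00734 without αKG replicate 3).

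Tcf21 (ENSMUSG00000045680, chr10:22817281-22820174, minus strand) encodes the basic helix-loop-helix factor that epicardial cells need to become fibroblasts. Its level was 56, 65 and 63 normalized counts with DMSO and 58, 62 and 39 with αKG. Replicates 1 and 2 of αKG fell inside the DMSO range, unlike those of Pdgfra, Ddr2, Thy1 and Dpt, and replicate 3 was the lowest of all libraries. The means were 61.3 ± 4.73 and 53.0 ± 12.3 (SD, n = 3 each), with a log2 fold change of -0.23 ± 0.21 (95% interval -0.70 to 0.24, limma adjusted p = 0.493). Without αKG replicate 3 it was -0.03 ± 0.13 (95% interval -0.34 to 0.28, adjusted p = 0.879).

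Meox1 (ENSMUSG00000001493, chr11:101877510-101894374, minus strand) encodes a homeodomain factor that is induced in activated cardiac fibroblasts. It was a low gene, at 15, 11 and 17 normalized counts with DMSO and 13, 7 and 7 with αKG. The groups overlapped through αKG replicate 1, and the log2 fold change was -0.65 ± 0.37 (95% interval -1.48 to 0.18, limma adjusted p = 0.274), or -0.51 without αKG replicate 3 (adjusted p = 0.29). The related factor Meox2, which is expressed in heart endothelium as well as mesenchyme, fell from 15, 17 and 18 to 4, 3 and 5 normalized counts, with no overlap, in the libraries in which endothelial markers were lower too; the part of endothelial cells in this was not tested. This was the one call among 13 listed relatives of the members (log2 fold change -1.84 ± 0.35, limma adjusted p = 0.0337, 0.0036 without αKG replicate 3 and up to 0.255 over alternatives), and leaving out any 1 of the other libraries ended it. Without αKG replicate 3, 5 relatives were called higher and 5 lower, against 19.3% and 17.9% of all genes. The relatives' highest gene, the gelsolin-family member Svil, had 2880, 2999 and 3001 against 3547, 3401 and 3042 normalized counts (0.17 ± 0.06, adjusted p = 0.127, or 0.00433 without αKG replicate 3).

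Dpt (ENSMUSG00000026574, chr1:164796644-164824266, plus strand) encodes dermatopontin, a small secreted protein found in a broad range of tissue fibroblasts. Normalized counts of 41, 39 and 40 with DMSO stood against 72, 75 and 46 with αKG. Dpt was the one member whose αKG values all exceeded the highest DMSO value, as did those of 13.7% of all genes, and 0 members had all αKG values under the lowest DMSO value, against 14.6%. Replicates 1 and 2 stood at 1.80 and 1.88 times the DMSO mean, and replicate 3 just above the DMSO range. The means were 40.0 ± 1.0 and 64.3 ± 15.9 (SD, n = 3 each), and the log2 fold change of 0.64 ± 0.22 (95% interval 0.15 to 1.14) did not pass the test (limma adjusted p = 0.108). Without αKG replicate 3 it was 0.86 ± 0.12 (adjusted p = 0.00374), with the adjusted p reaching 0.343 over alternatives.

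Gsn (ENSMUSG00000026879, chr2:35256380-35307892, plus strand) encodes gelsolin, an actin-severing protein that is abundant in cardiac fibroblasts but made by other heart cells too. Its normalized counts were 564, 468 and 506 with DMSO and 527, 501 and 507 with αKG. All αKG libraries lay inside the DMSO range, with means of 513 ± 48.3 and 512 ± 13.6 (SD, n = 3 each). The log2 fold change was 0.00 ± 0.09, and its 95% interval of -0.19 to 0.19 bounds a change in either direction more tightly than for any other member with all libraries. Leaving out αKG replicate 3 gave 0.01 (adjusted p = 0.951). Gsn was also the most abundant member per length.

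S100a4 (ENSMUSG00000001020, chr3:90603771-90606045, plus strand), known as fibroblast-specific protein although leukocytes express it strongly, was listed at 3, 4 and 5 normalized counts with DMSO and at 8, 4 and 1 in αKG. Both groups held 12 estimated reads, or 0.928 (exact Poisson 95% interval 0.479 to 1.62) and 1.0 (0.518 to 1.75) per 1000000 reads. Pi16 (ENSMUSG00000024011, chr17:29317680-29330593, plus strand), a marker of adventitial progenitor-like fibroblasts, was listed at 0, 2 and 0 in DMSO and 2, 0 and 1 in αKG, for 2 and 3 estimated reads per group. No fold is given for it, because neither group exceeded 3 reads. For S100a4, Fap and Pi16 the groups overlapped and no difference was detectable at this depth.

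**Figure D2:**
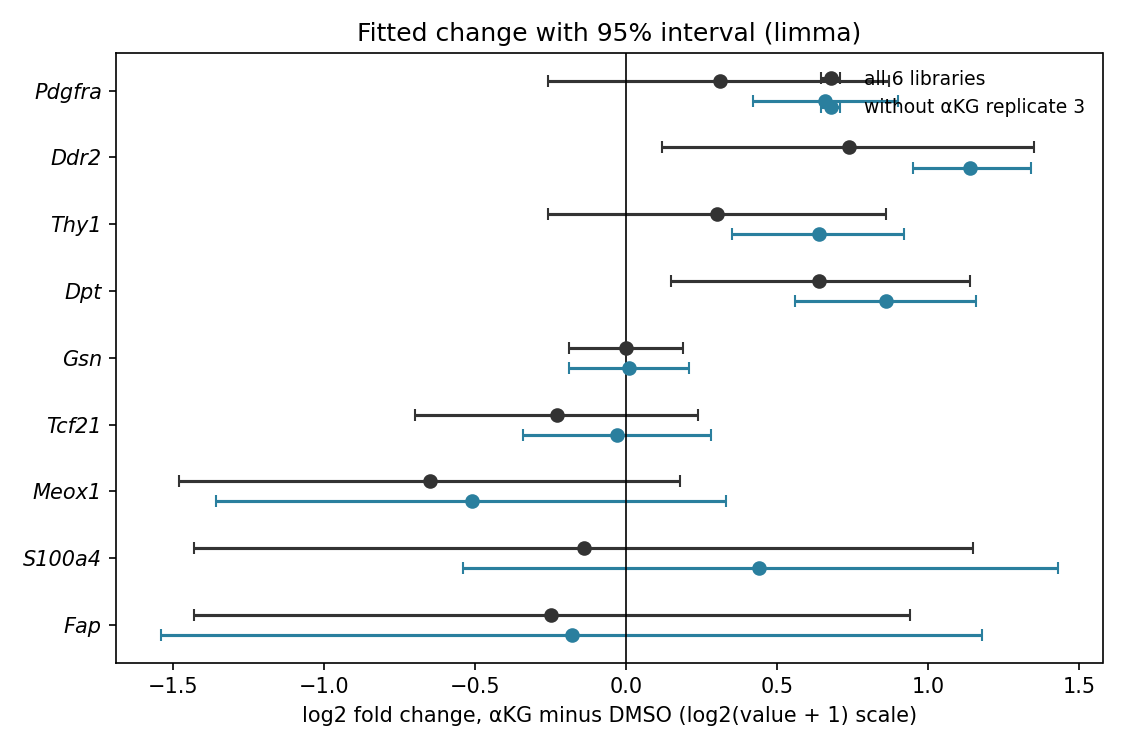
Fitted log2 fold change (x axis, αKG minus DMSO on the log2(value + 1) scale) of 9 fibroblast identity genes, with all 6 libraries (dark) and without αKG replicate 3 (blue); points are limma estimates and bars 95% intervals. Leaving out replicate 3 moves Pdgfra from 0.31 to 0.66, Ddr2 from 0.74 to 1.14, Thy1 from 0.30 to 0.64 and Dpt from 0.64 to 0.86 and narrows their intervals; Pi16 is not drawn because it had at most 3 estimated reads per group.

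Levels between genes were compared per kilobase of exon, on the scale of normalized counts per kb. In DMSO the order was led by Gsn (162 ± 15.3, SD, n = 3), followed by Thy1 (42.6 ± 5.35) and Ddr2 (41.3 ± 2.93), which did not differ beyond their spread. Tcf21 (26.1 ± 2.01), Pdgfra (26.0 ± 3.15) and Dpt (23.2 ± 0.58) formed the next level, in which neighbours differed by less than the larger of their SDs. S100a4 (6.85 ± 1.71) and Meox1 (6.43 ± 1.37) were lower, and Fap (0.589 ± 0.368) and Pi16 (0.105 ± 0.181) were lowest, with overlapping spreads. Over all libraries Gsn ranked above 94.2% of protein-coding genes per kb, Ddr2 above 67.6%, Thy1 above 62.2%, and Pdgfra and Dpt above 47.6% and 47.9%. Pi16 ranked above 0.8%, so the fibroblast set ran from an abundant to a barely listed gene within the same cultures.

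In αKG the order changed in places. Ddr2 (73.8 ± 30.6 normalized counts per kb) stood next after Gsn (162 ± 4.31), ahead of Thy1 (55.0 ± 19.4), Dpt (37.3 ± 9.25), Pdgfra (33.9 ± 12.4) and Tcf21 (22.6 ± 5.23). From Ddr2 to Tcf21, neighbours in this order differed by less than the larger of their SDs, with αKG replicate 3 the lowest of its group for each of these genes. S100a4 (7.42 ± 6.01) and Meox1 (4.04 ± 1.55) followed, again within their spread, then Fap (0.412 ± 0.102) and Pi16 (0.157 ± 0.157). Summed over the 10 members, normalized counts were 1393 to 1417 in DMSO and 2178, 2065 and 1258 in αKG replicates 1, 2 and 3, so the αKG libraries lay on both sides of the DMSO range. Most of each sum was Gsn, Ddr2 and Pdgfra. In αKG replicate 1, 5 members were above every DMSO library, beside 40.3% of all genes, and in replicate 2, 4 were, beside 39.1%. In replicate 3, 1 member was above (27.3% of all genes) and 5 were below every DMSO library (27.0%).

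The genes most like Pdgfra over the 6 libraries, among 8294 with a mean of at least 100, were Fam43a and Itgb5 (Pearson r = 0.995 each) and Plag1 (0.992). Fam43a, for instance, was measured at 79, 98 and 84 with DMSO and at 164, 153 and 58 normalized counts with αKG, the same split of αKG replicates 1 and 2 from replicate 3. Genes most like Tcf21 included Lrrc28 (0.99) and Mff (0.987), with Lrrc28 at 106, 123 and 118 against 111, 116 and 87, lowest in αKG replicate 3. The correlations describe only 6 libraries, and the named genes are the highest of all those compared. A high r follows from such a search, and a link between the genes was not tested.

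A wider list of 24 other fibroblast and mesenchymal genes had 22 listed members, of which 2 rose and 0 fell (limma), against 2.83% and 0.952% of all genes. At an unadjusted p under 0.05, 10 were higher, as were 3153 of all 20066 genes, and limma-voom called 0. Serpinf1, which encodes the secreted anti-angiogenic protein PEDF, stood at 15, 14 and 11 with DMSO and at 38, 36 and 25 normalized counts with αKG (log2 fold change 1.23 ± 0.28, adjusted p = 0.0469, 0.00502 without αKG replicate 3 and up to 0.257 over alternatives). Prrx1, a homeodomain factor of mesenchyme, had 727, 709 and 699 against 837, 847 and 897 (0.27 ± 0.06, adjusted p = 0.0495, likewise 0.00604 and up to 0.255). Leaving out any 1 library other than αKG replicate 3 ended both calls, as it did that of Meox2. The share of all genes called in those fits is not given, so this loss is not particular to these genes. Serpinf1 and Prrx1 were higher in every αKG library, replicate 3 included, unlike Pdgfra, Ddr2 and Thy1. The highest gene of the list, the intermediate filament gene Vim, had 1087, 1049 and 1077 against 1198, 1232 and 992 (0.08 ± 0.08, adjusted p = 0.533, or 0.0123 without αKG replicate 3).

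The list's median log2 fold change was 0.66, against 0.04 over all genes, and 9 of the 22 genes did not overlap between groups, all higher in αKG, as did 13.7% of all genes. The count called higher was 17 without αKG replicate 3, where 19.3% of all genes were. Among examples named after seeing their values, Nt5e, the surface ecto-nucleotidase CD73 of mesenchymal cells, was listed at 275, 296 and 276 with DMSO against 632, 676 and 325 normalized counts with αKG (adjusted p = 0.062, or 0.000259 without αKG replicate 3). The gelatinase gene Mmp2 had 375, 371 and 375 against 613, 595 and 418 (adjusted p = 0.0609, likewise 0.000476). Both were nearer to DMSO in αKG replicate 3 than in replicates 1 and 2, but still above all DMSO values.

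Genes of activated fibroblasts and myofibroblasts numbered 17, with 16 listed, of which 2 rose and 0 fell (limma), against 2.83% and 0.952% of all genes. At an unadjusted p under 0.05, 6 were higher, as were 3153 of all 20066 genes, and limma-voom called 0. Cnn1, a calponin of contractile cells, stood at 5, 10 and 12 with DMSO and at 119, 167 and 30 normalized counts with αKG (log2 fold change 3.17 ± 0.57, adjusted p = 0.0279, 0.00108 without αKG replicate 3 and up to 0.255 over alternatives). Ccn2, which encodes connective tissue growth factor, had 675, 706 and 696 against 1150, 1184 and 805 (0.57 ± 0.13, adjusted p = 0.0454, likewise 0.000308 and up to 0.278). These calls too ended when any 1 other library was left out. Both genes are also expressed by smooth muscle or myocytes. Acta2, the smooth muscle actin of myofibroblasts and of immature CMs and the highest gene of the list, had 970, 1020 and 1007 against 1019, 1020 and 1131 (0.08 ± 0.07, adjusted p = 0.453).

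Postn, the matricellular gene most tied to cardiac myofibroblasts and named after seeing its values, was listed at 418, 379 and 400 with DMSO and at 496, 565 and 308 normalized counts with αKG (limma adjusted p = 0.62, or 0.00825 without αKG replicate 3). Its αKG libraries lay on both sides of DMSO, as for Pdgfra and Thy1. The median log2 fold change of the activated list was 0.48, and 9 of its genes were called higher without αKG replicate 3, against 19.3% of all genes.

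**Figure D3:**
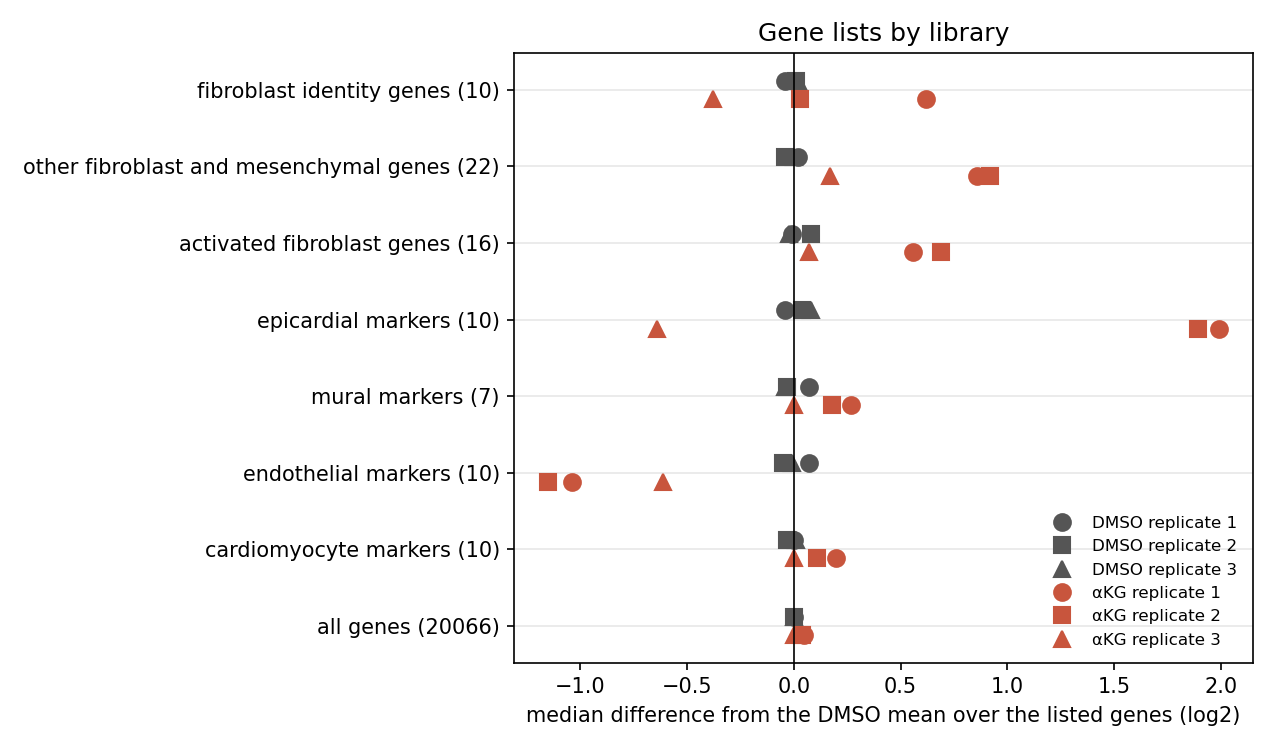
Median log2 difference from the DMSO mean (x axis) over the listed genes of each list (y axis, number of genes in brackets), 1 point per library, grey for DMSO and red for αKG. In αKG replicates 1, 2 and 3 the fibroblast identity genes sit at 0.62, 0.03 and -0.38 and the epicardial markers at 1.99, 1.89 and -0.64, while the endothelial markers sit at -1.04, -1.15 and -0.61. The identity medians include the low genes S100a4, Fap and Pi16, whereas Pdgfra, Ddr2, Thy1 and Dpt were higher in both αKG replicates 1 and 2.

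Markers of other cells that a neonatal heart preparation could hold moved in these libraries as well. All 10 epicardial markers were listed, and their sum was 527 to 586 normalized counts with DMSO and 1320, 1288 and 532 in αKG replicates 1, 2 and 3, with replicates 1 and 2 above and replicate 3 inside the DMSO range, as for Ddr2. None of the 10 passed the test with all libraries (limma), and 10 did, as higher, without αKG replicate 3, against 19.3% of all genes. With all libraries 3 were higher at an unadjusted p under 0.05, as were 3153 of all 20066 genes. In replicate 3, 7 of the 10 were below every DMSO library. Tbx18, the highest, had 306, 332 and 329 against 408, 405 and 351, Krt18 had 49, 62 and 71 against 113, 144 and 76, and Upk1b had 31, 33 and 43 against 126, 129 and 14. The part of epicardial cells in the fibroblast values was not tested.

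Of 10 endothelial markers, 7 fell and 0 rose, against 0.952% of all genes called lower, and the sum over all 10 was 2018 to 2153 in DMSO and 1518, 1400 and 1410 in αKG, here with replicate 3 on the side of its group. Without αKG replicate 3, 7 were called lower and 2 higher (Tek and Flt1), against 17.9% and 19.3% of all genes. Each of the 7 calls was lost under some alternative, with adjusted p-values up to 0.255 to 0.26. Cdh5 had 519, 442 and 518 against 222, 195 and 316 (limma adjusted p = 0.0181) and Kdr 393, 364 and 371 against 153, 128 and 253 (adjusted p = 0.0293), while Flt1, the highest, had 485, 510 and 499 against 733, 719 and 411 (adjusted p = 0.365) and was 1 of the 2 called higher without αKG replicate 3. Mural markers had 7 of 8 listed, with 1 called higher, against 2.83% of all genes. It was Cspg4 (801, 846 and 777 against 1576, 1282 and 1021, limma adjusted p = 0.0362, up to 0.264 over alternatives). Without αKG replicate 3, 2 were called higher and 1 lower, against 19.3% and 17.9% of all genes. The mural sums were 3215 to 3340 in DMSO and 3229 to 3649 in αKG. That sum rests on Abcc9 and Cspg4, as the defining pericyte marker Rgs5 was at 1 to 6 in every library. Their part in the fibroblast values was not tested.

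Of 10 macrophage and leukocyte markers, 4 were listed (Csf1r, Cd68, Mrc1 and Lyz2), with 0 called and sums of 22 to 35 in DMSO and 24 to 41 in αKG (0 also without αKG replicate 3), and Ptprc, Adgre1 and C1qa had no row. The 10 CM markers, led by Ttn, Ryr2 and Myh6, had 0 called and sums of 77772 to 80463 in DMSO and 111034, 114030 and 82372 in αKG, most of it Ttn. Without αKG replicate 3, 5 were called higher and 1 lower, against 19.3% and 17.9% of all genes. Sums over the 10 cell cycle genes were 3249 to 5870 in DMSO and 6940 to 7897 in αKG. With all libraries 3 of them were called higher (Top2a, Mki67 and Bub1), against 2.83% of all genes. Without αKG replicate 3 the count was 3 as well, but against 19.3% of all genes. These calls were lost under other alternatives (limma adjusted p up to 0.256, 0.264 and 0.268). The cell cycle sum was highest in αKG replicate 3, at 7897. Mcm2 and Mcm5 differed most between the αKG libraries. Cdk1, Aurkb, Plk1 and Bub1 were also highest in replicate 3, whereas Top2a, Mki67, Ccnb1 and Ccnb2 were highest in replicate 1. In αKG replicates 1, 2 and 3, Mcm2 had 415, 417 and 830 normalized counts and Mcm5 had 261, 253 and 536. Mki67, the highest gene of the list, had 3632, 3570 and 3516. A link between cell cycle and fibroblast values was not tested.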

How the data were processed

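Total RNA of 6 CM cultures (3 DMSO, 3 αKG) was prepared with a stranded total-RNA kit. Per the submitters' notes the authors used Trimmomatic 0.39, STAR 2.7.10a (mm10), Picard 2.27.1, featureCounts 2.0.3 and DESeq2 1.30.1. The values as deposited are a score rather than raw counts, called normalized counts in the text: they are reads that the authors divided by a DESeq2 size factor per library and rounded to whole numbers. Low values are therefore coarse. The table held only genes reaching 2 in some library, so a gene with no row is not analysed here. No source used here says that the counting was strand-aware.

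All libraries entered 1 limma 3.58.1 model (R 4.3.3) on log2(value + 1), treatment as the only term, with a mean trend, two-sided, with Benjamini-Hochberg adjustment over 20066 genes and no filter. The pseudocount understates changes of low genes. Reads per library were estimated from the spacing of low whole numbers, which in simulated data recovered 9 of 10 factors within 0.3%, with a largest error of 2.933%. In simulated data of 18770 genes, 194 of 200 genes changed 2-fold were called with the right sign, and 6 unchanged ones were called. The changed genes had a mean of at least 30 estimated reads. All genes had a dispersion (spread beyond counting error) of 0.01. No simulated library was set apart as αKG replicate 3 was, so this recovery does not measure the power of the test here. The Poisson intervals cover counting error only. Reads carried no molecular identifiers and PCR copies are not independent, so these intervals may be too narrow. The limma intervals rest on the spread between libraries. The study's methods describe a neonatal CM sample, for imaging, as 1 isolation from pooled hearts. The labels do not say whether this holds for these libraries, so p-values measure the spread between them, which may be technical. Positions are the table's (98.95% identical to GENCODE M21, GRCm38, which gave exon lengths).

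The members and lists were chosen with earlier results of these data known. Named were all members and PDGF ligands, the up to 4 called genes with the smallest p and the highest gene of each other list, the 3 highest genes of each marker list and the 3 genes most correlated with Pdgfra and Tcf21. Genes named after their values were seen are marked. Some items that this rule would name are not reported here. Alternatives were other pseudocounts, filters, scalings and fits, and leaving out each library. Python 3.11.15 was used for reading and plots.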

Additional observations from a re-analysis of the deposited data

How the results depend on the processing

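The count of members past the threshold (0) was 4 without αKG replicate 3 and ranged from 0 to 4 over the fits that each left out 1 library. It was 2 at an unadjusted p under 0.05, and 0 under every other alternative. Of the 2 other fibroblast and mesenchymal genes called, 0 were called with a pseudocount of 0.1, without the mean trend, with limma-voom, with the replicate block or with DMSO replicates 2 and 3 averaged, and 1 with equal library totals or quantile normalization; the range over left-out libraries was 0 to 17, the 17 without αKG replicate 3, and the unadjusted count was 10. The 2 activated fibroblast calls became 1 with a pseudocount of 0.1 and 0 without the trend, with limma-voom, with the replicate block or with the averaging, ranged from 0 to 9 over left-out libraries (9 without αKG replicate 3) and were 6 unadjusted. The 1 call among relatives, Meox2, became 0 without the trend, with the block or with the averaging. The relatives' count ranged from 0 to 10 over left-out libraries (10 without αKG replicate 3, 5 higher and 5 lower). At an unadjusted p under 0.05 it was 6, 2 higher and 4 lower, against 28.1% of all genes in either direction. Leaving out any library other than αKG replicate 3 left 0 calls in each of these lists, in fits with fewer samples. The highest limma adjusted p over alternatives was the same, 0.255, for Cnn1, Prrx1, Meox2 and the endothelial Cdh5 and Kdr. A lost call is therefore not particular to any of these genes. The share of all genes called in those fits is not given here. The cause of the other changes was not tested.

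Of 124 fold changes of single members under the alternatives (Pi16 left out, at 2 and 3 reads per group), 113 kept their direction and side of the threshold, 4 gained a call (all without αKG replicate 3) and 7 changed sign, none of them called. Gsn (0.00) was -0.02 with equal totals, -0.03 with the averaging and -0.06 to 0.07 over left-out libraries. Over left-out libraries, Fap (-0.25) ranged from -0.73 to 0.06, above 0 without DMSO replicate 1, and S100a4 (-0.14) from -0.64 to 0.44, above 0 without αKG replicate 3. The members' median stayed between -0.02 and 0.35. Same-numbered libraries shared only a number (their deviations correlated at -0.074, 0.136 and 0.002), and the replicate block left 0 members called. Depth (3726069 to 4427587 estimated reads per library) limits S100a4, Fap and Pi16. DMSO replicates 2 and 3 agreed closely over all genes (chi-square per gene of 1.0) but differed in cell cycle genes (12.7) and were counted as 2 libraries.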
